A study of Mus musculus with 18 samples.

Results

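The genes described here are Akt1, Akt2, Irs1, Irs2, Insr, Igf1r, Pik3r1 and Pdpk1, 8 of the 18193 genes with a probe set of their own on the 2 chips, which carry the insulin and IGF-1 signal inside the cell as far as Akt. The members were all probe sets whose only gene symbol in the platform annotation is one of these 8 names. There were 24 such probe sets, 15 on chip 430A and 9 on chip 430B, and 20 of them lay among the 60% with the highest mean signal and were tested. The 8 genes were chosen by name and not by their values in these arrays, but with earlier results of these data known.

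All mice were males of 1 transgenic line, Tet-myrAkt1/αMHC-tTA, in which a membrane-targeted, active form of Akt1 can be switched on in heart muscle cells by the αMHC-tTA driver; the labels name no group without the transgene. The 9 hearts fell into 3 groups of 3: before AAC (aged 8 weeks), 4 weeks after AAC (aged 12 weeks), and 6 weeks after AAC with Akt on (also given as aged 12 weeks). AAC is the operation that produced the pressure overload, and each heart was hybridised to both chips. The titles give 3 weeks of Akt and the descriptions 2 weeks, and the description of replicate 3 of the 4-week group carries the number 1. Hearts with Akt on differ from 4-week hearts both in Akt and in the time since AAC, and these cannot be told apart. Time and AAC likewise cannot be told apart in the comparison of 4-week hearts with hearts before AAC. Hearts with Akt on differ from hearts before AAC in Akt, AAC, time and age at once, which cannot be told apart either.

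Insulin and IGF-1 bind receptor tyrosine kinases, the products of Insr and Igf1r, which phosphorylate the adaptor proteins Irs1 and Irs2. The adaptors recruit phosphoinositide 3-kinase through its regulatory subunit p85α, the product of Pik3r1, and the lipid it makes brings Akt to the membrane, where the kinase PDK1, the product of Pdpk1, activates it. In heart muscle cells Akt1 is known for growth and survival, and Akt2 for glucose uptake. The same pathway is known to be restrained by its own output, through phosphorylation of the adaptors and through FoxO transcription factors, which Akt keeps out of the nucleus and which can activate the genes of Insr and Irs2.

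The labelled tissue was checked by its markers: all 8 cardiac muscle markers passed the filter, and their signals summed to 160185 or more in every heart. Endothelial, fibroblast, smooth muscle and macrophage markers were also present. Atrial markers summed to between 4697 and 91517 across hearts and each group held both high and low hearts. In such bulk samples fewer cells of a type and less RNA per cell cannot be told apart. Signals are MAS5 intensities without a unit, differences are of log2(signal + 32), and the words rose, fell and changed are kept for probe sets with an adjusted p from limma under 0.05. Ratios and folds are these log2 differences turned back to a linear scale. They include the added 32 and are therefore not ratios of the mean signals printed beside them. The signal of one probe set is not set against that of another.

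Across the members, hearts with Akt on differed from 4-week hearts in 3 of the 20 tested probe sets, beside 2.54% of all 27083 tested probe sets. Akt1, the gene of the transgene switched on in hearts with Akt on, rose by 1 of its 3 tested probe sets. Irs1 and 1 of the 3 probe sets of Akt2 fell. The counts with Akt on, here and against hearts before AAC, include that Akt1 probe set. Whether it reads the transgene is not known here. Single directions passed in 1.08% (higher) and 1.46% (lower) of all probe sets. Of the 20 differences 16 were negative, with a median of -0.17 against 0.02 for all probe sets, and 6 had an unadjusted p under 0.05. In 6 (1 higher, 5 lower) the 3 hearts with Akt on did not overlap with the 3 at 4 weeks, beside 20.6% of all probe sets (10.8% higher, 9.79% lower). At 4 weeks 2 of the 20 were higher than before AAC and none was lower, beside 4.43% of all probe sets (2.75% higher, 1.68% lower), a count too small to be read as a result about the members. Their median difference was 0.03 against -0.04 for all probe sets, 5 had an unadjusted p under 0.05, and in 4 (3 higher, 1 lower) the groups did not overlap, beside 29.3% of all probe sets (13.1% higher, 16.2% lower). Hearts with Akt on differed from hearts before AAC in 6 of 20 (2 higher, 4 lower), beside 13.4% of all probe sets (6.86% higher, 6.51% lower), and in 8 (2 higher, 6 lower) the groups did not overlap, beside 32.1% (15.7% higher, 16.4% lower). In the comparisons with hearts before AAC, 10 of the 20 differences were negative at 4 weeks and 12 with Akt on. Any 2 of the 3 comparisons share a group of hearts, so the counts are not independent. Within a comparison several probe sets read the same gene in the same hearts, so their signs are not independent either.

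**Figure D1:**
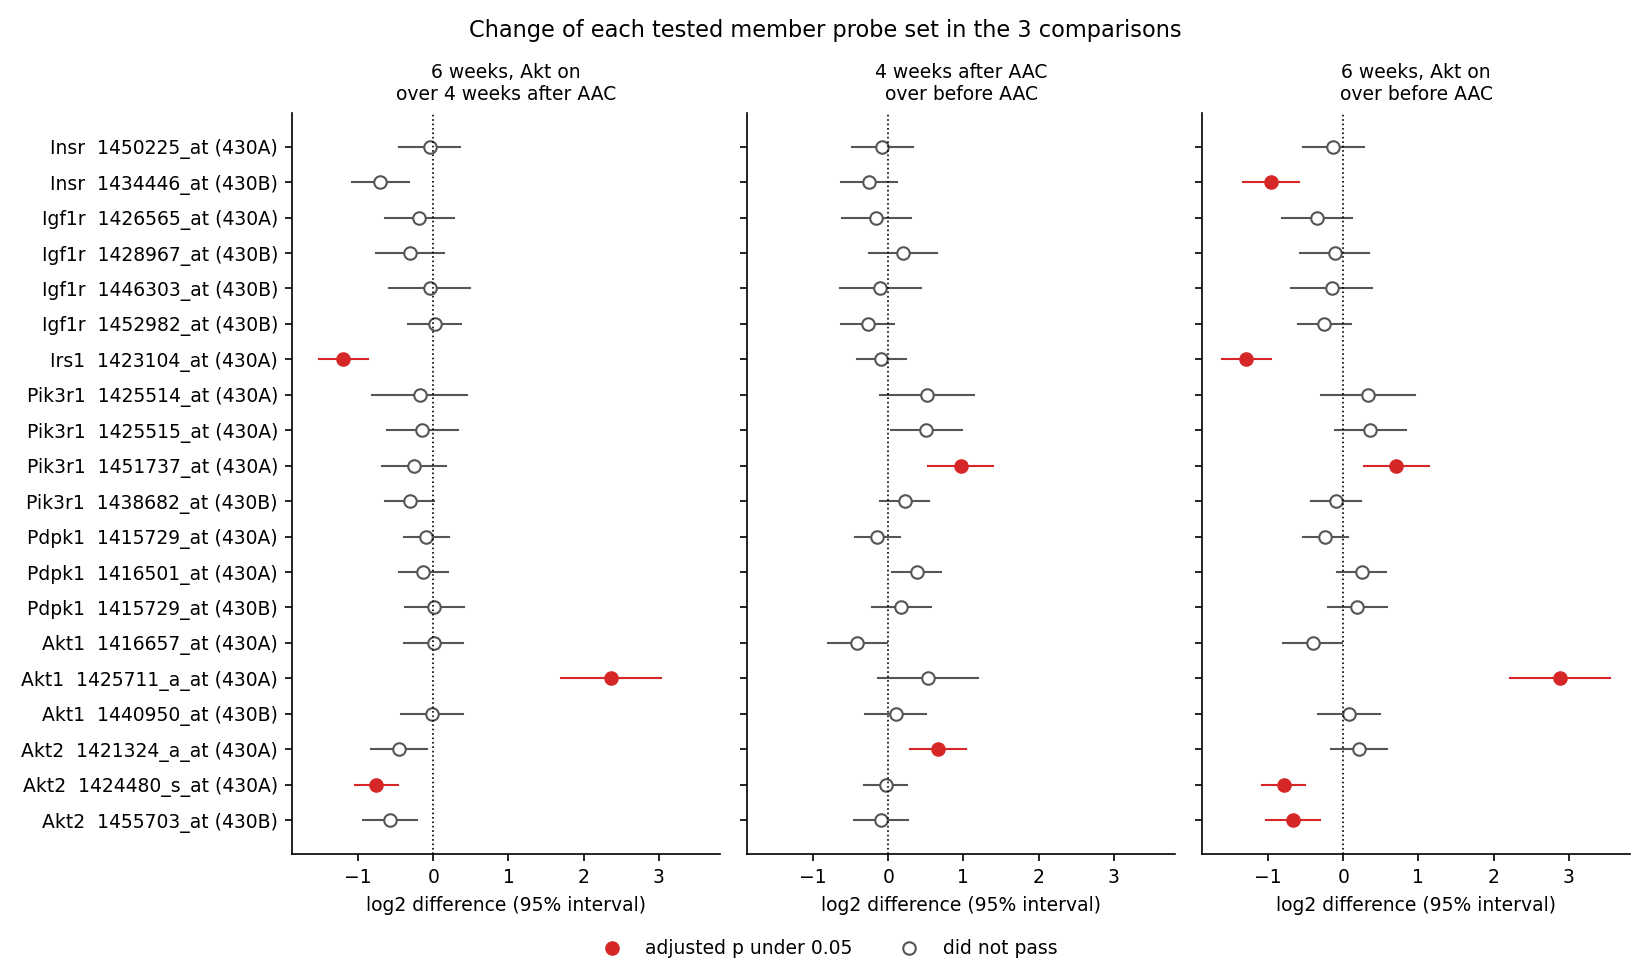
Difference in log2(signal + 32) of each tested member probe set with its 95% interval, for 6 weeks with Akt on over 4 weeks after AAC (left), 4 weeks after AAC over before AAC (middle) and 6 weeks with Akt on over before AAC (right); 3 hearts a group, and filled points passed the test. Irs1 and the Akt2 probe set 1424480_s_at lie to the left in both comparisons with Akt on and near 0 in the middle panel, and 1425711_a_at of Akt1 lies to the right, at 2.36 and 2.89, in the 2 panels with Akt on.

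Akt1, the gene of the transgene, was read by 3 tested probe sets, which did not move together. Probe set 1425711_a_at had signals of 708, 383 and 496 before AAC, 571, 821 and 917 at 4 weeks and 2614, 3762 and 6535 with Akt on. All 3 hearts with Akt on lay above all other hearts and differed among themselves more than 2-fold, and hearts at 4 weeks and before AAC overlapped. The ratio of hearts with Akt on over 4-week hearts was 5.13, a log2 difference of 2.36 (SE 0.31, adjusted p = 0.00312), and over hearts before AAC it was 7.41 (log2 difference 2.89 (SE 0.31, adjusted p = 0.000433)). Both differences passed in all 9 fits that each left out 1 heart.

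Probe set 1416657_at of Akt1 had signals of 1734, 1619 and 1811 before AAC, 928, 1438 and 1587 at 4 weeks and 1438, 1248 and 1201 with Akt on. Hearts with Akt on and at 4 weeks overlapped, and the difference was 0.01 with a 95% interval of -0.38 to 0.40. It averaged 1721 ± 96.6 before AAC, 1317 ± 346 at 4 weeks and 1296 ± 125 with Akt on (SD, n = 3 each). Neither log2 difference from hearts before AAC passed: -0.40 with Akt on (adjusted p = 0.164) and -0.41 at 4 weeks (adjusted p = 0.208). Probe set 1440950_at on chip 430B had signals of 185, 202 and 179.5 before AAC, 154, 218 and 251 at 4 weeks and 171, 241 and 196 with Akt on, with all groups overlapping. Another, 1442759_at, lay below the filter at 19.9 to 23.3 in every heart. Whether each of these lies within the transgene's own sequence is not given in the sources used here.

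Insr, the insulin receptor, was lower with Akt on than before AAC by 1 of its 2 tested probe sets, and did not pass against 4-week hearts. Probe set 1434446_at on chip 430B had signals of 1468, 2059.6 and 1789.8 before AAC, 1516, 1437 and 1437 at 4 weeks and 1034, 682 and 984 with Akt on. The 3 groups stood in descending order, with Akt on below both others and the earlier 2 overlapping. With Akt on it averaged 900.2 ± 190.4 against 1772 ± 296 before AAC (SD, n = 3 each), 1.95-fold lower, with a log2 difference of -0.96 (SE 0.17, adjusted p = 0.00466); this call held under all settings and without any 1 heart. Against 4-week hearts the difference was -0.70 (SE 0.17, adjusted p = 0.0528), just short of the threshold. That difference passed in 2 of 12 alternative settings, with the filter at 40% (adjusted p = 0.0463) and with the atrial score as a covariate (0.0195). It passed in 1 of the 9 fits that each left out 1 heart, that without replicate 1 with Akt on (0.0429). In the rest the adjusted p reached 0.116 among the settings and 0.143 among the fits without 1 heart.

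At 4 weeks Insr by this probe set differed from hearts before AAC by -0.26 (adjusted p = 0.419), and the test of the difference between these 2 steps was not run. The other tested probe set of Insr, 1450225_at, had signals of 201, 233 and 180.5 before AAC, 225, 178 and 174 at 4 weeks and 182, 153 and 221 with Akt on, with all groups overlapping. Its difference with Akt on was -0.05 against 4 weeks (95% interval -0.46 to 0.36) and -0.13 against before AAC. The interval against before AAC, -0.54 to 0.28, does not reach the -0.96 of 1434446_at, so the 2 probe sets of this gene gave different sizes. The third, 1421380_at, was below the filter.

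Igf1r, the IGF-1 receptor, did not pass in any comparison by its 4 tested probe sets. Probe set 1452982_at on chip 430B had signals of 653 to 709 before AAC, 451 to 694 at 4 weeks and 519.9 to 649 with Akt on, and it differed by 0.02 with Akt on against 4 weeks (95% interval -0.34 to 0.37). Probe set 1426565_at ranged over 225 to 255 before AAC, 164 to 285 at 4 weeks and 159 to 237 with Akt on. Probe sets 1428967_at and 1446303_at ranged over 209 to 292 before AAC, 222 to 404 at 4 weeks and 190.1 to 245 with Akt on, and over 123 to 175 before AAC, 112 to 154 at 4 weeks and 69.6 to 161 with Akt on. The 4 differences with Akt on against 4 weeks lay between -0.31 and 0.02, those at 4 weeks against before AAC between -0.27 and 0.20, and those with Akt on against before AAC between -0.35 and -0.11. The widest of the 95% intervals with Akt on against 4 weeks, that of 1446303_at, ran over -0.58 to 0.49, so a change smaller than that could be missed. The fifth probe set, 1452108_at, was below the filter.

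Irs1, the adaptor through which insulin and IGF-1 receptors reach phosphoinositide 3-kinase, fell in hearts with Akt on. Its 1 probe set, 1423104_at, had signals of 1825, 1301 and 1479 before AAC, 1502, 1426 and 1349 at 4 weeks and 660.2, 633 and 525 with Akt on. Every heart with Akt on lay at 660.2 or less and every other heart at 1301 or more, and 4-week hearts lay within the range of hearts before AAC. Irs1 averaged 606 ± 71.4 with Akt on and 1425 ± 76.5 at 4 weeks (SD, n = 3 each), 2.29-fold lower with Akt on. The log2 difference was -1.20 (SE 0.15, adjusted p = 0.00275), and its p stood at number 38 in ascending order among all 27083.

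Against hearts before AAC, Irs1 with Akt on was 2.44-fold lower, with a log2 difference of -1.29 (SE 0.15, adjusted p = 0.000767). At 4 weeks it differed from hearts before AAC by -0.09 (95% interval -0.42 to 0.23, adjusted p = 0.778). Both calls with Akt on held under all 12 alternative settings and in all 9 fits that each left out 1 heart. Of the 8 genes, Irs1 and Akt1 were those whose calls held so in both comparisons with Akt on.

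Irs2, the other main adaptor, could not be followed. Its 1 probe set, 1443969_at, lay below the filter, with signals of 179, 226 and 121 before AAC, 132, 19 and 177 at 4 weeks and 167, 28.3 and 16 with Akt on. All 3 groups overlapped and differed widely within themselves, so no difference is given.

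The promoters of both adaptor genes are shown because Irs1 gave the smallest p of all member probe sets when hearts with Akt on were compared with 4-week hearts, and because Irs2 is its closest relative. Each window runs from 250 bases before to 50 bases after the start of the RefSeq transcript (build GRCm38.p6), 5′ to 3′ on the gene's strand. Capitals mark CACGTG, the palindromic E-box, and TGTTTTG, a form of the insulin response element core to which FoxO factors bind. Irs1 lies at chr1:82291390-82291689 and Irs2 at chr8:11008880-11009179, both on the minus strand.
Irs1: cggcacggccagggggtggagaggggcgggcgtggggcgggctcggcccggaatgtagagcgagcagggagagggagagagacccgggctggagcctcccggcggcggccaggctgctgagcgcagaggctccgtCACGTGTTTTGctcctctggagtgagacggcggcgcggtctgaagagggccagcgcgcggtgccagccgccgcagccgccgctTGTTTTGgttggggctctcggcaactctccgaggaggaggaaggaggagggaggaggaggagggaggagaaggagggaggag
Irs2: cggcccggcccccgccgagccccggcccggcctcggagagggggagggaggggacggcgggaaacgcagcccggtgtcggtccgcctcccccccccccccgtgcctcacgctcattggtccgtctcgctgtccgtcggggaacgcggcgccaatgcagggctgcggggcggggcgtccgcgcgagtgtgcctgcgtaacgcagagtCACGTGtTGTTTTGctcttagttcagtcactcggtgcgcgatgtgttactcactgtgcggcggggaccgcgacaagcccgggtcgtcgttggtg
The Irs1 window held 1 E-box and 2 copies of TGTTTTG, and its E-box shared 2 bases with the first copy. In the Irs2 window the E-box and TGTTTTG stood 1 base apart. Both motifs, and the limit of 10 bases between them, were chosen after these windows had been read. The shares that follow therefore do not measure how unexpected these matches are. Both strands were searched. Of 32851 promoter windows, 7.15% held CACGTG, 6.28% held TGTTTTG, 0.408% held both and 0.0548% held both within 10 bases of each other. Of the other 11 windows of members, which covered Akt1, Akt2, Igf1r, Pik3r1 and Pdpk1, none held either motif, and 1 window of Akt1 held TGTTTAC, the FoxO consensus core, as did 3.65% of all windows. These matches describe letters and not binding.

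Pik3r1, which encodes the p85α, p55α and p50α regulatory subunits of phosphoinositide 3-kinase, rose at 4 weeks by 1 of its 4 tested probe sets. Probe set 1451737_at had signals of 250.2, 169 and 175 before AAC, 402, 322 and 532 at 4 weeks and 315, 341 and 362 with Akt on. All hearts at 4 weeks and all hearts with Akt on lay above the 3 hearts before AAC, and these 2 later groups overlapped. At 4 weeks it averaged 419 ± 106 against 198 ± 45.3 before AAC (SD, n = 3 each), 1.95-fold higher, with a log2 difference of 0.96 (SE 0.20, adjusted p = 0.025). With Akt on it was 1.63-fold higher than before AAC, with a log2 difference of 0.71 (SE 0.20, adjusted p = 0.0343), and it differed by -0.25 from 4-week hearts (95% interval -0.68 to 0.18).

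The Pik3r1 call at 4 weeks was lost without any 1 of replicates 2 and 3 before AAC and 1 and 3 at 4 weeks (adjusted p = 0.0568 to 0.0911), with no filter (0.0503) and with 4-week replicates 1 and 3 averaged (0.0557). The call with Akt on against before AAC was lost without any 1 of replicates 2 and 3 of either group (0.0841 to 0.121) and with no filter (0.068). The other probe sets of Pik3r1 did not pass. Probe set 1425514_at had signals of 254, 180.4 and 153 before AAC, 213, 216 and 512 at 4 weeks and 251, 219 and 286 with Akt on, and 1425515_at of 373, 219 and 248 before AAC, 359.7, 412 and 436 at 4 weeks and 269, 463 and 369.9 with Akt on. Probe set 1438682_at on chip 430B had signals of 1585, 1526 and 1492 before AAC, 1765, 1459 and 2222 at 4 weeks and 1413, 1378 and 1513 with Akt on. At 4 weeks all 3 were, on average, above hearts before AAC with overlapping groups, and their log2 differences were 0.52, 0.51 and 0.22. With Akt on against 4 weeks all 4 Pik3r1 differences were negative, from -0.31 to -0.15.

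Pdpk1, the kinase PDK1 that activates Akt, did not pass in any comparison by its 3 tested probe sets. Probe set 1415729_at stands on both chips and so gave 2 readings of the same hearts. On chip 430A it had signals of 589, 605 and 544 before AAC, 519.6, 478 and 566 at 4 weeks and 466, 558 and 442 with Akt on, with differences of -0.09 with Akt on against 4 weeks and -0.15 at 4 weeks against before AAC. On chip 430B it gave 0.01 and 0.17, so the second difference had opposite signs on the 2 chips, with 95% intervals that overlap (-0.45 to 0.16 and -0.22 to 0.57). Probe set 1416501_at had signals of 401, 377 and 397 before AAC, 541, 468 and 554 at 4 weeks and 559, 398 and 466 with Akt on, the 4-week hearts all above those before AAC, with a log2 difference of 0.38 at 4 weeks (adjusted p = 0.163) and of -0.14 with Akt on against 4 weeks.

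Akt2, the isoform linked to glucose uptake, was lower in hearts with Akt on by 1 of its 3 tested probe sets against 4-week hearts and by 2 against hearts before AAC. Probe set 1424480_s_at had signals of 1836, 2160.1 and 2204 before AAC, 1789.5, 2196 and 2079 at 4 weeks and 1239, 1089.8 and 1206 with Akt on. The hearts with Akt on lay below all 6 other hearts, and the 2 earlier groups overlapped. With Akt on it averaged 1178 ± 78.5, against 2021 ± 209 at 4 weeks (SD, n = 3 each), 1.69-fold lower, with a log2 difference of -0.76 (SE 0.13, adjusted p = 0.0118). Against hearts before AAC the difference with Akt on was -0.79 (SE 0.13, adjusted p = 0.0034), and that of 4-week hearts was -0.03 (95% interval -0.32 to 0.25). Without replicate 3 of the 4-week group the adjusted p of the first of these was 0.0507.

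Probe set 1455703_at of Akt2, on the other chip, had signals of 182, 243 and 236 before AAC, 203, 188 and 217 at 4 weeks and 116, 144 and 118 with Akt on. Here too the 3 hearts with Akt on lay below all others. The log2 difference with Akt on was -0.57 (SE 0.17, adjusted p = 0.0941) against 4-week hearts, which did not pass, and -0.67 (SE 0.17, adjusted p = 0.0197) against hearts before AAC, which did. The call against hearts before AAC was lost without replicate 2 or 3 before AAC or replicate 3 with Akt on, at adjusted p between 0.0652 and 0.0862. The third Akt2 probe set went another way.

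That probe set, 1421324_a_at, had signals of 258, 190.3 and 177 before AAC, 357, 365 and 316 at 4 weeks and 213, 245 and 275 with Akt on. The 4-week hearts were the highest and overlapped with neither other group, while hearts with Akt on and before AAC overlapped. At 4 weeks it was 1.59-fold higher than before AAC, with a log2 difference of 0.67 (SE 0.17, adjusted p = 0.0498), at the edge of the threshold. It kept that call under 4 of 11 alternative settings and in 1 of the 9 fits that each left out 1 heart, that without replicate 1 with Akt on. The adjusted p in the other 8 was 0.0523 to 0.165. With Akt on it differed by -0.46 (SE 0.17, adjusted p = 0.197) from 4-week hearts and by 0.21 (adjusted p = 0.479) from hearts before AAC. All 3 Akt2 probe sets were thus negative with Akt on against 4 weeks, and 1 of them passed.

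**Figure D2:**
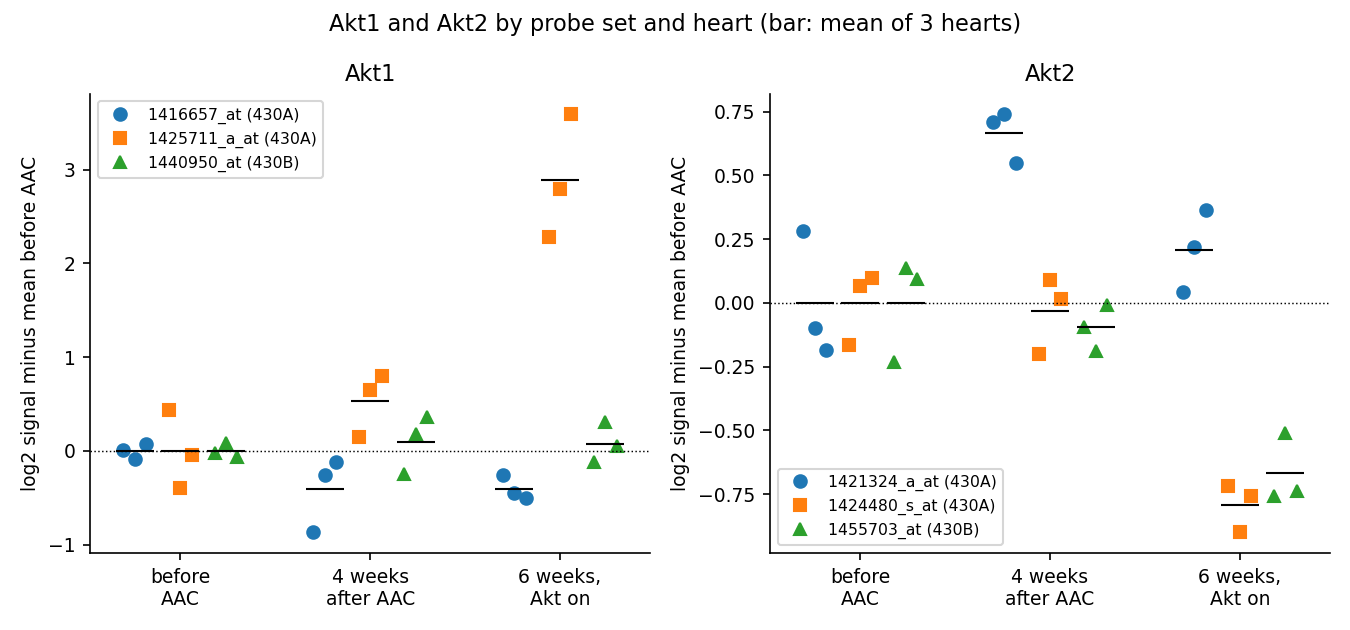
Log2(signal + 32) of the tested Akt1 (left) and Akt2 (right) probe sets in each heart, minus the mean of the 3 hearts before AAC, in the order of the time points; points are hearts and bars are means of 3. With Akt on only 1425711_a_at among the 3 Akt1 probe sets stands above the rest, and 2 of the 3 Akt2 probe sets stand below every earlier heart.

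**Figure D3:**
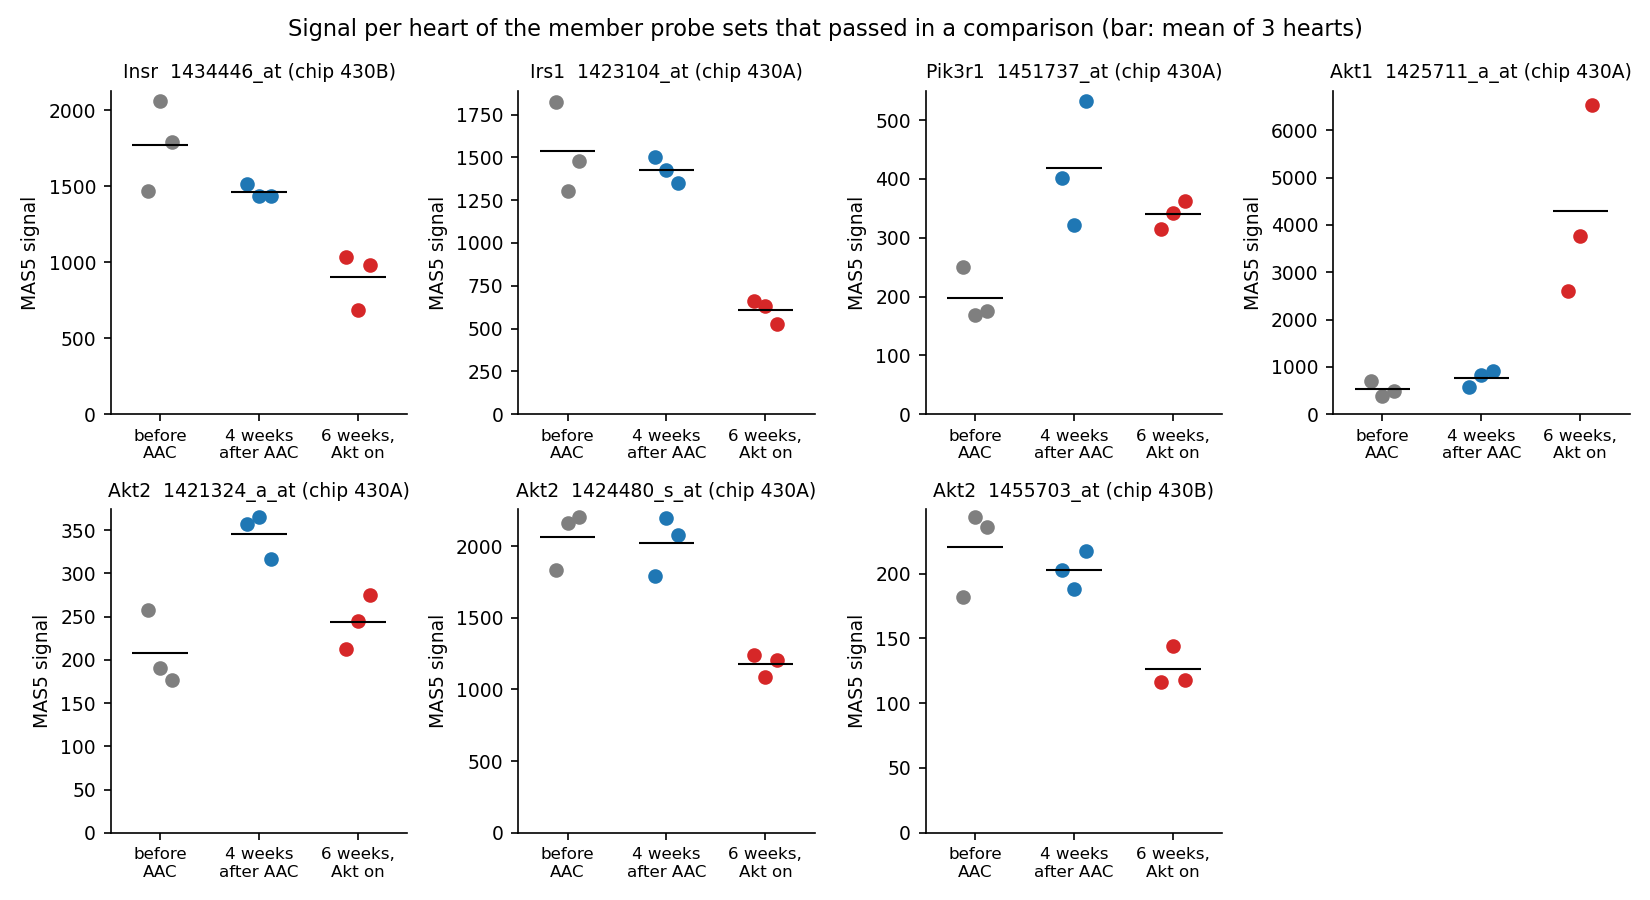
MAS5 signal, on a linear axis from 0, of the 7 member probe sets that passed in at least 1 comparison, with points for hearts and bars for means of 3, in the order of the time points. Irs1 stays at 1301 to 1825 until 4 weeks and is at 525 to 660.2 with Akt on, and Akt1 by 1425711_a_at is at 383 to 917 until 4 weeks and at 2614 to 6535 with Akt on.

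Other genes of insulin, IGF and phosphoinositide 3-kinase signalling were taken from a list of 57, of which 45 were tested through 92 probe sets. With Akt on against 4 weeks 2 of the 45 genes had a probe set that rose and 3 had one that fell, beside 1.84% and 2.44% of all 12835 tested genes, or 4.28% in either direction. The median over the 92 probe sets was 0.13, and over all probe sets 0.02. By role, 1 of 6 receptors and their regulators and 1 of 8 kinase subunits rose, 3 of 10 Akt substrates and glucose transporters fell, and none of 6 adaptors, 5 lipid phosphatases and 10 Akt regulators passed.

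Slc2a4, the insulin-responsive glucose transporter GLUT4, fell in both of its probe sets. Probe set 1415958_at had signals of 2043, 2101 and 2187 with Akt on and 4337, 3965 and 5175 at 4 weeks, with a log2 difference of -1.07 (SE 0.12, adjusted p = 0.00145), and 1415959_at gave -1.12 (adjusted p = 0.00709). Pfkfb2, whose product makes the activator of glycolysis fructose 2,6-bisphosphate and is phosphorylated by Akt, fell in 1 of 3 probe sets. Its 1429486_at had signals of 426, 379.6 and 388 with Akt on, against 867, 804 and 939.7 at 4 weeks, a log2 difference of -1.07 (SE 0.13, adjusted p = 0.00224), while the others gave -0.49 and 0.13. Pik3r3, which encodes another regulatory subunit, p55γ, rose 2.54-fold, with signals of 836, 1404 and 1343 with Akt on and 381, 390.3 and 569 at 4 weeks and a log2 difference of 1.34 (SE 0.21, adjusted p = 0.0063). In both Slc2a4 probe sets, in 1429486_at and in that of Pik3r3, all hearts with Akt on stood apart from all 4-week hearts. The calls of these probe sets held in all 9 fits without 1 heart.

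Slc2a1, the basal glucose transporter GLUT1, fell in 1 of 2 probe sets, with a log2 difference of -0.78 (SE 0.17, adjusted p = 0.0382) and signals of 173, 132 and 140.4 with Akt on and 302, 295 and 235 at 4 weeks. Grb10, which binds and inhibits the insulin and IGF-1 receptors, rose in 1 of 3 probe sets, 1425458_a_at, with signals of 2179.6, 3408 and 3474 with Akt on and 1599.9, 1668 and 1971 at 4 weeks and a log2 difference of 0.75 (SE 0.17, adjusted p = 0.0419). Grb10 was outside the rule for naming and was named after its values were seen. The calls of Slc2a1 and Grb10 each held in 1 of the 9 fits without 1 heart, that without replicate 1 with Akt on, and were at adjusted p of 0.0538 to 0.118 and 0.0636 to 0.126 in the others. Of the alternative settings, Slc2a1 passed in 7 of 11 and Grb10 in 8 of 12. Both were lost with no filter, with only the 2 groups compared and with 4-week replicates 1 and 3 averaged, Slc2a1 also with the replicate block and Grb10 also without the variance trend, at adjusted p between 0.0644 and 0.111.

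**Figure D4:**
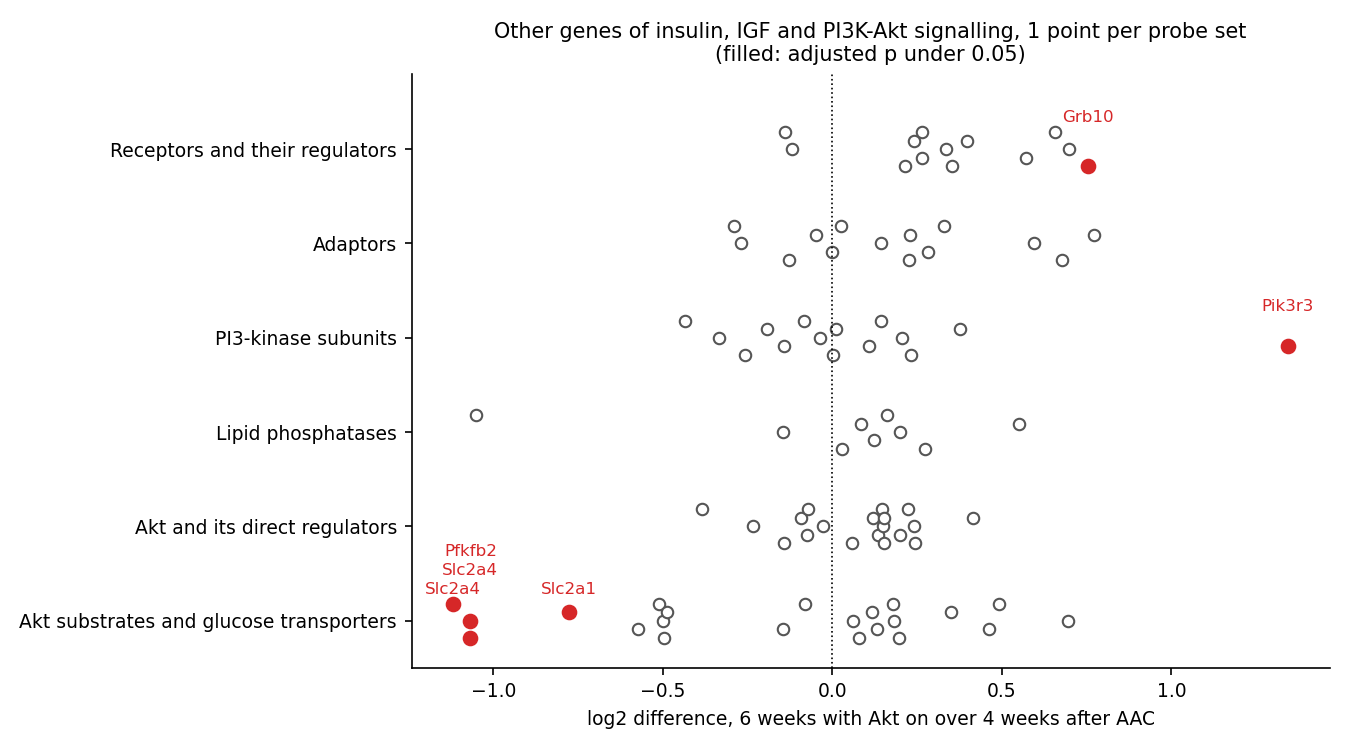
Log2 difference, 6 weeks with Akt on over 4 weeks after AAC, of the 92 tested probe sets of the pathway list by role; each point is a probe set, and filled, named points passed the test. The 4 filled points on the left are both Slc2a4 probe sets, Pfkfb2 and Slc2a1, and the 2 on the right are Pik3r3 and Grb10.

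At 4 weeks against before AAC 3 list genes rose and 2 fell, beside 4.73% and 2.74% of all genes (7.41% in either direction), shares near that background. Slc2a4 by 1415959_at had signals of 3471, 3492 and 3821 at 4 weeks and 2419, 1899 and 1816 before AAC, a log2 difference of 0.81 (SE 0.18, adjusted p = 0.0278); 1415958_at gave 0.03. Hsp90aa1, a chaperone that stabilises Akt, differed by 0.85 (SE 0.18, adjusted p = 0.025) in 1 of 4 probe sets. Its other probe sets gave 0.27, 0.07 and -0.03. Ppp2ca, the catalytic subunit of protein phosphatase 2A that removes phosphate from Akt, differed by 0.51 (SE 0.13, adjusted p = 0.0422) in 1 of 2 probe sets. The other Ppp2ca probe set gave -0.69. Ptpn1, the phosphatase PTP1B that switches off the insulin receptor, fell in 1 of 2 probe sets by 0.60 (SE 0.14, adjusted p = 0.0341), and Grb10 in 1 of 3 probe sets, 1430164_a_at, differed by -0.80 (SE 0.18, adjusted p = 0.0341), the others giving 0.14 and -0.01. Ppp2ca was named after its values were seen. Each of these 5 calls was lost without replicate 2 or 3 before AAC or replicate 1 or 2 at 4 weeks. Those of Hsp90aa1, Ppp2ca and Grb10 were also lost without replicate 1 before AAC, and those of all but Hsp90aa1 without replicate 3 at 4 weeks, at adjusted p between 0.0533 and 0.14 in all. Hsp90aa1 passed in 12 of 12 alternative settings, Slc2a4 in 10 of 12, Ptpn1 in 9 of 12, Ppp2ca in 7 of 12 and Grb10 in 7 of 11.

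With Akt on against before AAC 7 list genes rose and 6 fell, beside 11.1% and 9.28% of all genes (20.1% in either direction). The 4 smallest p values belonged to Pfkfb2, Slc2a4, Pik3r3 and Grb2, an adaptor that links receptors to Ras. The log2 difference was -1.23 (SE 0.13, adjusted p = 0.000433) for Pfkfb2 by 1429486_at and -1.04 (SE 0.12, adjusted p = 0.000767) for Slc2a4 by 1415958_at, and 1.36 (SE 0.21, adjusted p = 0.00237) for Pik3r3 and 1.20 (SE 0.21, adjusted p = 0.00484) for Grb2. The other Slc2a4 probe set, 1415959_at, gave -0.30 and did not pass, and the other Pfkfb2 probe sets gave 0.26 and -0.03. Grb2 by 1449111_a_at had signals of 1539, 1895 and 1898 with Akt on, against 735, 801 and 723 before AAC, in 1 of its 2 probe sets. At 4 weeks the 3 hearts were spread out, at 949.7, 1518 and 739. These 4 calls held in all 9 fits without 1 heart.

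Other cell types and RNA quality moved with some of these comparisons, and their part in the results was not tested. With Akt on against 4 weeks, where Akt1, Irs1 and Akt2 passed, 3 of 7 fibroblast markers were higher, all of them collagen chains (Col1a1, Col1a2 and Col3a1). The other markers of that list, Dcn, Lum, Pdgfra and Dpt, were not called and overlapped between the 2 groups. Dcn, for example, was at 13058 to 17421 against 14778 to 19135. The fibroblast list summed to 37109 to 56430 against 27418 to 43410, which overlap. The adipocyte markers measured here (4 of 6) summed to 7332 to 8335 with Akt on and 9040 to 11623 at 4 weeks, nearly all of it Fabp4, which endothelium also expresses and which fell by another of its probe sets, while Adipoq was at 8.00 to 459 and Lep below the filter. Smooth muscle markers summed to 9676 to 12192 with Akt on against 12422 to 14532, with 1 of 6 (Cnn1) higher, and lymphocyte markers, 2 of 5 above the filter, to 439 to 462 against 336 to 393. Cardiac muscle markers (0 of 8 called), endothelial markers (0 of 7), macrophage markers (0 of 6) and atrial markers (0 of 5) had overlapping sums in these 2 groups. The ratio of 3′ to 5′ signal of β-actin on chip 430A, which rises as RNA is shortened, overlapped too, at 1.04 to 1.22 with Akt on and 1.14 to 1.21 at 4 weeks.

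Both comparisons with hearts before AAC differ from this. On chip 430A that ratio was 1.49 to 2.04 before AAC, above every later heart. On chip 430B, which carries Insr 1434446_at and Akt2 1455703_at, it was 1.45 to 1.86 before AAC, 1.16 to 1.51 at 4 weeks and 1.11 to 1.26 with Akt on, so that 4-week hearts overlapped with those before AAC and hearts with Akt on did not. The ratio for Gapdh on chip 430A was 1.07 to 1.32 before AAC, 0.828 to 0.888 at 4 weeks and 0.809 to 0.930 with Akt on. On chip 430B the Gapdh ratio was 0.954 to 1.15 before AAC, 0.854 to 0.917 at 4 weeks and 0.772 to 0.934 with Akt on. By Gapdh neither later group overlapped with hearts before AAC on either chip. Cardiac muscle markers summed to 203777 to 228904 before AAC, 170386 to 176977 at 4 weeks and 160185 to 198434 with Akt on, and against hearts before AAC 1 of the 8 was higher and 2 lower at 4 weeks, and 1 higher and 4 lower with Akt on. Endothelial markers summed to 11825 to 12219.7 before AAC, 7731 to 9770.2 at 4 weeks and 7400.2 to 7971 with Akt on, with 4 of 7 lower with Akt on and 1 of 7 lower at 4 weeks. Smooth muscle markers summed to 16343 to 18097 before AAC, 12422 to 14532 at 4 weeks and 9676 to 12192 with Akt on (1 of 6 lower with Akt on). Lymphocyte markers summed to 516 to 586 before AAC, 336 to 393 at 4 weeks and 439 to 462 with Akt on, with none of the 2 tested called. Adipocyte markers summed to 7332 to 8335 with Akt on against 10124 to 11396 before AAC (1 of 3 tested lower), and macrophage markers to 4738 to 6674 at 4 weeks against 7442 to 8032 before AAC (none of 6 called). Skeletal muscle markers summed to 39039.6 to 51448 with Akt on against 31481 to 38493 before AAC, with 1 of the 2 tested higher, as it was at 4 weeks. Nearly all of that sum was Acta1 and Ckm, while Myh4, Myh1 and Tnni2 lay below the filter. Acta1 was at 19533 to 28341 with Akt on and 4994 to 10877 before AAC, and Ckm at 19434 to 23462 and 26417 to 29025. The sum is therefore not read as skeletal muscle. Of the fibroblast markers 3 of 7 were higher with Akt on, with overlapping sums. Every call of a member against hearts before AAC rests on these hearts; those of Akt1, Irs1 and Akt2 by 1424480_s_at also passed against 4-week hearts.

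For the member probe sets most followed here, the genes with the most similar pattern over the 9 hearts, on the same chip, are given with Pearson's r as a description; the 9 hearts share their groups, so any gene that differs between groups in the same way will score high. For Irs1 they were Golga4 (0.99), Psmb10 (0.99) and Smim27 (0.97). For Akt2 by 1424480_s_at they were Xiap (0.98), Mmut (0.97) and Bmp6 (0.96), and for Insr by 1434446_at Mylk3 (0.99), Sik3 (0.97) and Cisd1 (0.97). For Pik3r1 by 1451737_at they were Immt (0.96), Nsa2 (0.96) and Mtdh (0.95), and for Akt2 by 1455703_at Ubn2 (0.97), Ddx31 (0.96) and Dhtkd1 (0.96). The Akt1 probe sets had separate companions, Crem (0.98), Ddx39a (0.97) and Ppa1 (0.97) for 1425711_a_at, Mrps35 (0.95), Phc2 (0.94) and Ndufb11 (0.94) for 1416657_at and Sv2c (0.93), Tenm4 (0.91) and Sec22c (0.91) for 1440950_at, with no gene in common among the 3.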

How the data were processed

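Total RNA of 9 hearts was isolated with the Ultraspec-II system and labelled with biotin by standard Affymetrix procedures, per the labels. The deposited values are intensities on a linear scale, 1 per probe set and array, made by the authors with MAS5 per the submitters' processing notes; its version and target are not given in the sources used here. The deposited arrays had been scaled to a common trimmed mean (2% off each end), 500.19 to 500.22 on chip 430A and 122.51 on chip 430B, 4.08 times lower.

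From these, arrays were brought to the mean trimmed mean of their chip and log2(signal + 32) was taken. Of 45265 probe sets 128 controls were left out, and the 60% with the highest mean signal on each chip were tested (27083), those with several gene symbols or none included. In limma 3.58.1 (R 4.3.3) each chip was fitted with 1 mean per group for all 3 groups (lmFit, eBayes with a trend), two-sided, with Benjamini-Hochberg adjustment over both chips and a threshold of 0.05; the fit was tested on simulated data. The labels do not say that the 3 samples of a group were separate animals, so p-values measure the spread between these samples. The number of arrays, 3 a group, limits how precise a difference is (median standard error 0.20 in log2). Same-numbered hearts did not deviate together (correlations of -0.24 to 0.14 over 18 pairs), and no 2 arrays were copies.

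The 8 genes, the pathway list and the marker lists were chosen with earlier results of these data known. Named were all member probe sets and, per comparison, up to 4 pathway genes with a called probe set and the smallest p; pattern likeness took the 3 genes with the highest r on the same chip. Symbols are from the platform annotation and promoter sequences from RefSeq (GRCm38.p6), which held 7 of the 8 genes in 13 windows. Alternatives covered scaling, pseudocount, filter, variance trend, groups fitted, adjustment, an atrial score, a replicate block and each heart left out in turn; for the pathway genes they were added after seeing the data.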

Additional observations from a re-analysis of the deposited data

How the results depend on the processing

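The 3 member calls with Akt on against 4 weeks stayed between 2 and 4, and the 6 with Akt on against before AAC between 4 and 6, under every alternative, each heart left out included. The 2 calls at 4 weeks against before AAC were not stable: they came to 1 with a pseudocount of 16, with 430B signals multiplied to the 430A scale, without the variance trend, with the replicate block and with the atrial score as a covariate, and to 0 without a filter and with 4-week replicates 1 and 3 averaged. Leaving out 1 heart at a time gave 0 to 2. The cause was not tested. With the filter at 40% the count was also 1, but there Akt2 by 1421324_a_at was not among the 16 members tested. With the replicate block the 3 counts were 3, 1 and 6. The labels do not say whether the replicate numbers pair the hearts. No called member changed sign under any alternative. Of 1018 uncalled member tests under the alternatives 31 changed sign, all with a main difference of at most 0.20 in size, and 3 passed, each of them Insr by 1434446_at. Counts over all probe sets moved more: 688 with Akt on against 4 weeks (239 to 799 under the alternatives), 1199 at 4 weeks against before AAC (118 to 1799) and 3623 with Akt on against before AAC (1696 to 4083). Quantile scaling moved no median of all probe sets by over 0.1. The files give no background level per probe set, so how far dim members such as Irs2 stood above background is unknown.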
